A study of Mus musculus with 6 samples.

Results

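Interferon regulatory factors (IRFs) are transcription factors that share a DNA-binding domain and decide when interferon and interferon-stimulated genes are transcribed. Messenger RNA of 8 of them, Irf1, Irf2, Irf3, Irf4, Irf5, Irf7, Irf8 and Irf9, was followed in the cortex of mice whose microglia had been ablated and had been allowed to return. The 8 genes were taken by symbol from a table of 23366 genes, without use of their values. Of the 8, 7 passed a filter on low values (a mean of at least 0.5 FPKM, the fragments of a gene scaled for transcript length and library size, over the 6 mice) and were tested among 14385 genes. Irf4 did not pass it. Irf3 and Irf7 lie on mouse chromosome 7, Irf2 and Irf8 on 8, Irf1 on 11, Irf4 on 13, Irf5 on 6 and Irf9 on 14.

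RNA of frontal cortical tissue from 3 control mice (A1, A2 and A3) and 3 microglia-depleted mice at d10 (A4, A5 and A6) was sequenced. Each mouse gave 1 library, and the tissue is called cortex below. Depleted mice combined CX3CR1-CreERT2+/- with iDTR+/-, a diphtheria toxin receptor that is silent until Cre removes a stop cassette, and the controls were littermates with CX3CR1-CreERT2+/- but without iDTR. Both groups were on a C57BL/6 background and received tamoxifen (TAM), and the depleted mice then received diphtheria toxin (DT). Cre was driven by the Cx3cr1 promoter, which is active in microglia and in other myeloid cells such as monocytes and border macrophages, and every mouse had only 1 intact Cx3cr1 copy. The study waited after TAM so that short-lived blood monocytes would be replaced by cells without the receptor. The labels give neither age nor sex, the methods describe the mice as matched for both, and they do not state whether the control mice received DT, so an effect of the toxin itself and an effect of microglia loss and return cannot be told apart.

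The family divides into roles. IRF3 is present in most cells before any stimulus and, once phosphorylated by the kinases TBK1 or IKK-epsilon, switches on interferon-beta. IRF9 is the DNA-binding subunit of ISGF3, the complex with STAT proteins that answers the type I interferon receptor, and IRF7 is itself a target of ISGF3 and amplifies interferon production. IRF1 is an activator induced by interferon-gamma, and IRF2 occupies the same sites and mostly opposes it. IRF8 is a lineage factor of microglia and other myeloid cells, IRF5 transmits Toll-like receptor signals in them, and IRF4 acts mainly in lymphocytes and alternatively activated macrophages.

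Each library held between 7.16 M and 20.5 M fragments as estimated from the spacing of low FPKM values, with A5 the shallowest. Control libraries held 14.6 M, 20.5 M and 18.4 M (A1, A2 and A3), and depleted libraries 13.7 M, 7.16 M and 11.2 M (A4, A5 and A6). By these estimates every depleted library was shallower than every control library, so depth and group cannot be told apart. A4 stood apart from the other libraries: its mean Pearson correlation with the other 5 was 0.972, against 0.981 to 0.985 for the rest. The RNA of A4 also held Y-linked transcripts (Ddx3y, Eif2s3y, Kdm5d and Uty summed to 5.56 FPKM, against at most 0.16 elsewhere) beside Xist at 30.86 FPKM, and A3 had Xist at 4.74 FPKM where the other 4 mice had 38.14 to 46.66. Log2 fold changes of the tested members, and direction counts or medians of the lists of IRF regulators and targets, are therefore given with and without A4. Cell type markers are given with all 6 mice unless stated otherwise. The 12 cortical neuron markers were all detected above the filter and summed to 964.12 to 1024.62 FPKM in control and 886.69 to 997.73 FPKM in depleted mice. The summed choroid plexus markers, most of which is Ttr, were at 46.88 to 71.85 FPKM in depleted against 169.31 to 326.21 FPKM in control mice. All 7 choroid plexus markers were lower on average in depleted mice, 2 of them without overlap between the groups. When A4 was left out, all 7 were again lower and 5 had no overlap. Endothelial markers summed to 23.78 to 27.67 FPKM in depleted and 21.36 to 23.69 FPKM in control mice. Of these 7 markers, 5 were higher and 2 lower on average in depleted mice, and only 1 had no overlap between the groups. Without A4, 6 were higher and 1 lower, and 2 of the higher and the 1 lower had no overlap. Their part in the IRF values was not tested.

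In control cortex, Irf3 and Irf2 were the most abundant IRF transcripts, at 9.80 ± 0.99 FPKM and 8.95 ± 0.908 FPKM (mean ± SD, n = 3 mice), and their ranges over mice overlapped. Irf9 followed at 5.01 ± 0.508 FPKM and Irf1 at 2.71 ± 0.781 FPKM, each apart from its neighbours in every mouse. Irf8 (1.28 ± 0.255 FPKM), Irf5 (1.25 ± 0.181 FPKM) and Irf7 (1.07 ± 0.654 FPKM) could not be ordered, because their ranges overlapped. Irf4 was lowest at 0.11 ± 0.0458 FPKM. FPKM is a level per transcript length, so the levels of different IRF genes may be set beside each other.

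In depleted cortex the order of the means was set by A4. Irf9 stood first at 13.3 ± 10.1 FPKM, followed by Irf7 at 11.2 ± 12.6 FPKM, Irf2 at 10.3 ± 1.35 FPKM and Irf3 at 7.49 ± 1.94 FPKM, and neighbours in this order overlapped. Irf1 (2.62 ± 2.01 FPKM), Irf5 (1.99 ± 0.287 FPKM) and Irf8 (1.84 ± 0.446 FPKM) came below, and Irf4 was again last at 0.107 ± 0.0987 FPKM. In A4, Irf7 was the most abundant of all 8. In A5 and A6, Irf2 and Irf3 led as in control mice, and the means without A4 were 9.68 FPKM for Irf2, 8.54 FPKM for Irf3, 7.53 FPKM for Irf9 and 3.94 FPKM for Irf7.

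**Figure D1:**
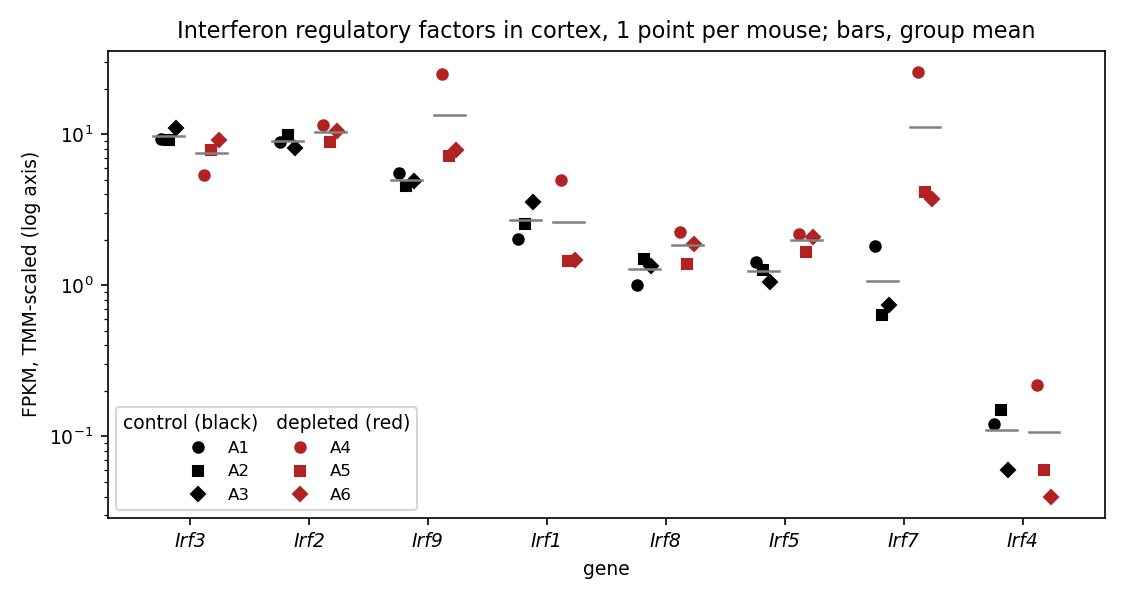
Level of the 8 IRF genes in each mouse, in FPKM on a logarithmic axis, with 1 point per mouse (control black, depleted red) and gray bars at the group means. All depleted points of Irf7, Irf9 and Irf5 lie above all control points of the same gene, whereas the groups of Irf1, Irf2, Irf3, Irf4 and Irf8 overlap.

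The promoter stretches of Irf7, Irf9, Irf3 and Irf1 are shown because these genes, 2 inducible activators, 1 constitutive factor and 1 factor with opposite values in different depleted mice, carry the comparison. Each is the 250 bases before an annotated RefSeq start in GRCm38.p6, printed along the gene's strand, from chr7:141266425-141266674 (minus strand), chr14:55603735-55603984 (plus strand, start 1 of 2), chr7:44997398-44997647 (plus strand) and chr11:53769764-53770013 (plus strand, start 1 of 2). The windows were searched on both strands for the interferon-stimulated response element core (GAAA, any 2 bases, GAAA), the gamma-activated site TTCNNNGAA and the TATA box TATAAA, and capitals mark matches.
Irf7: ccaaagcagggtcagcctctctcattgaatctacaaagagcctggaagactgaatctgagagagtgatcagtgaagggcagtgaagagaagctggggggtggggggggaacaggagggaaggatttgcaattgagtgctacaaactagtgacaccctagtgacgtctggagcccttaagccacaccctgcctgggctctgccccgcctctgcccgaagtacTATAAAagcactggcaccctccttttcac
Irf9: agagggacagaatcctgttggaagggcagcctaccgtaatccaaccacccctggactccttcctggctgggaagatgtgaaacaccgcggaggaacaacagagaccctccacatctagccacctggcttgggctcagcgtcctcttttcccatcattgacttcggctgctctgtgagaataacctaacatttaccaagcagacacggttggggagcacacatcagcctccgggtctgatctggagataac
Irf3: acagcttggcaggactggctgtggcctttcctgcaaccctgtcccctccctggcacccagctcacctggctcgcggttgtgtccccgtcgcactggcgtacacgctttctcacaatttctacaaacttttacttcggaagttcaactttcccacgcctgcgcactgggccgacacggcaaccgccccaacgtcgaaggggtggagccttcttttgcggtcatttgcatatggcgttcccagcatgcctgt
Irf1: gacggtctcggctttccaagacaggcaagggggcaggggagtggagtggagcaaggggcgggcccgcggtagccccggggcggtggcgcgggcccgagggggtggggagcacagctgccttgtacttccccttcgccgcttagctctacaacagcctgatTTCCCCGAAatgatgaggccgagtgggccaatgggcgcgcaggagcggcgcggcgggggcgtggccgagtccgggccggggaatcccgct
The capitals of Irf7 are a TATA box from 29 to 24 bases before the start, and those of Irf1 are a gamma-activated site from 90 to 82 bases before it. The windows of Irf9 and Irf3 held no match to these 3 patterns. Among the other members, Irf2 held a response element core at 241 to 232 and a gamma-activated site at 224 to 216 bases before its start, Irf8 (start 1 of 2) held gamma-activated sites at 171 to 163 and 153 to 145 and a TATA box at 31 to 26, and Irf4 held a TATA box at 26 to 21. Of 32851 promoter windows of the same length, 2.98% held the response element core, 7.02% the gamma-activated site and 12.4% the TATA box. A match is a description of letters and no evidence of binding.

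The main question was which IRF transcripts differed between depleted and control cortex. None of the 7 tested IRF genes passed limma's test at an adjusted p under 0.1 (Benjamini-Hochberg over 14385 genes), a threshold that 0.0278% of all tested genes passed. At an unadjusted p under 0.05, Irf5, Irf7 and Irf9 passed, all 3 with higher levels in depleted mice, where 10.5% of all tested genes passed, 4.79% with higher and 5.74% with lower levels. The same 3 genes had no overlap between groups, against 17.6% of all tested genes, 8.21% with higher and 9.38% with lower levels. These shares are the background against which 3 of 7 is to be read. More cells of a type and more RNA per cell cannot be told apart in tissue RNA, and neither can fewer cells and less RNA per cell. None of the levels therefore says which cells differed. Without A4 the genes were not the same: Irf7 and Irf9 passed at an unadjusted p under 0.05 with higher levels and Irf1 with lower levels, Irf5 did not pass, and the background was 13.2%. Irf5, Irf7, Irf9 (higher) and Irf1 (lower) then had no overlap, against 30.2% of all tested genes. At an unadjusted p under 0.05, Irf7 alone passed without A2 (6.61% of all tested genes) and without A3 (6.15%).

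**Figure D2:**
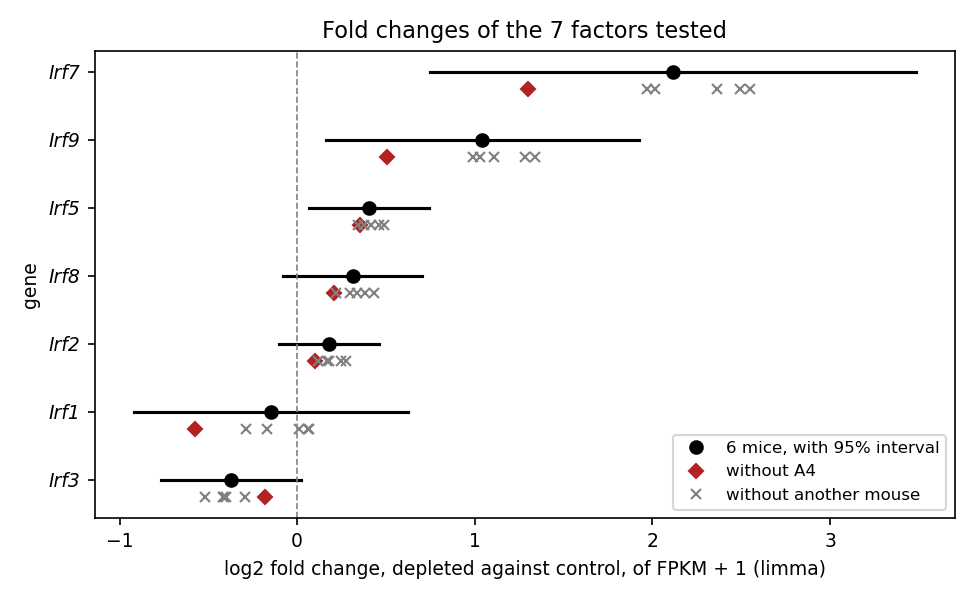
Log2 fold change (depleted against control, on the log2(FPKM + 1) scale) of the 7 tested IRF genes. Black points with lines are limma's values over all 6 mice with 95% intervals, red diamonds the values without A4, and gray crosses the values without each of the other mice. Irf7 lies at 2.12 with all mice and at 1.30 without A4, and Irf1 lies at -0.15 with all mice and at -0.57 without A4.

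Irf7, the inducible amplifier of type I interferon, had the largest difference of the family. The control mice held 1.82, 0.64 and 0.74 FPKM, whereas A4 reached 25.81 FPKM, A5 4.14 FPKM and A6 3.75 FPKM. The groups did not overlap, and A4 was far above the other depleted mice. The log2 fold change was 2.12 (SE 0.598, 95% interval 0.75 to 3.48), with a limma p of 0.00706 and an adjusted p of 0.378, and the exact two-sided permutation test gave p = 0.1, the smallest that 3 mice against 3 allow. Irf7 ranked 10 of 14385 genes by log2 fold change. Without A4 the log2 fold change was 1.30 with a limma p of 0.000745 and an adjusted p of 0.155, and over all alternative settings the adjusted p ran from 0.155 to 0.892. In FPKM the depleted mean was 10.5 times the control mean, and 3.70 times without A4.

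Irf9, the DNA-binding subunit of ISGF3, showed a like order of mice on a smaller scale. Its levels were 5.56, 4.56 and 4.90 FPKM in the control mice and 24.95 FPKM (A4), 7.17 FPKM (A5) and 7.88 FPKM (A6) after depletion, so that the groups did not overlap. The log2 fold change was 1.04 (SE 0.385, 95% interval 0.16 to 1.92), with a limma p of 0.0254 and an adjusted p of 0.419, and the exact permutation p was 0.1. Without A4 it was 0.51, with a limma p of 0.00273 and an adjusted p of 0.208, and the ratio of means was 1.5 in place of 2.66. Its adjusted p ran from 0.208 to 0.892 over the alternative settings. Irf9 shares 0.854% of its 75-base windows with Rnf31 on the same strand.

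Irf3, the constitutive partner of the TBK1 pathway, was lower on average in depleted mice. Control levels were 9.30, 9.16 and 10.94 FPKM, against 5.39, 7.87 and 9.21 FPKM after depletion. The groups overlapped, because A6 lay between A2 and A1. Its log2 fold change was -0.37 (SE 0.172, 95% interval -0.76 to 0.02), with a limma p of 0.0621 and an adjusted p of 0.498. A4 held the lowest level, and the log2 fold change was -0.18 without A4 and -0.52 without A6 (limma p of 0.0143). Irf3 shares 0.403% of its 75-base windows with Bcl2l12 on the opposite strand.

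Irf2, the repressor that competes with IRF1, differed least in relative terms among the abundant members. Its levels of 8.87, 9.90 and 8.09 FPKM in control mice and of 11.57, 8.88 and 10.47 FPKM in depleted mice overlapped. A log2 fold change of 0.18 had a 95% interval from -0.10 to 0.46 and a limma adjusted p of 0.626, which leaves room for a small difference in either direction, and it was 0.10 without A4.

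Irf1, the interferon-gamma-induced activator, differed in direction between depleted mice. Control mice held 2.02, 2.56 and 3.56 FPKM, and depleted mice held 4.95 FPKM in A4 but 1.45 and 1.47 FPKM in A5 and A6. A4 was above every control mouse, whereas A5 and A6 were below every control mouse, at about 22 and 35 fragments. Over all 6 mice the log2 fold change was -0.15 (SE 0.338, 95% interval -0.92 to 0.62, limma adjusted p of 0.902). Without A4 it was -0.57, with a limma p of 0.017 and an adjusted p of 0.298. Leaving out A3, A5 or A6 brought it to 0.010, 0.067 and 0.061, so that its sign changed with single mice, and its adjusted p ran from 0.298 to 0.998 over the alternative settings. Irf1 shares 0.626% of its 75-base windows with Gm17334.

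Irf5, which relays Toll-like receptor signals in myeloid cells, was higher in every depleted mouse. Control levels were 1.42, 1.27 and 1.06 FPKM and depleted levels 2.20, 1.66 and 2.10 FPKM, and A4 did not stand apart here. The log2 fold change was 0.41 (SE 0.148, 95% interval 0.07 to 0.74), with a limma p of 0.0237 and an adjusted p of 0.414, and the exact permutation p was 0.1. Without A4 it was 0.36 with a limma p of 0.0523. The annotation places Irf5 opposite Tnpo3, with 9.24% of the 75-base windows of Irf5 shared, and Tnpo3 ran from 23.76 to 29.12 FPKM. Whether the counting used strand is not given in the sources used here, so a part of the Irf5 value may belong to Tnpo3.

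Irf8, the lineage factor of microglia, had overlapping groups. Its levels were 1.0, 1.5 and 1.34 FPKM in control mice and 2.27, 1.38 and 1.88 FPKM in depleted mice. Its log2 fold change was 0.31 (SE 0.171, 95% interval -0.08 to 0.70), with a limma p of 0.104 and an adjusted p of 0.556, and it was 0.21 without A4.

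Irf8 and Irf5 were also set against the microglia markers of the same mouse, since both are known from these cells. The 15 markers summed to 133.25 to 161.75 FPKM in control and 141.69 to 180.06 FPKM in depleted mice. Among them P2ry12, a purine receptor of homeostatic microglia, was at 9.44 ± 0.878 FPKM in control and 7.18 ± 0.73 FPKM in depleted mice, Tmem119 at 8.77 ± 1.79 FPKM and 9.99 ± 2.75 FPKM, and the Cre driver gene Cx3cr1 at 4.42 ± 0.388 FPKM and 4.52 ± 0.514 FPKM. Relative to the mean of the markers, Irf5 was 0.34 higher on the log2 scale in depleted mice with no overlap (exact permutation p = 0.1, 0.2 after Benjamini-Hochberg over 2 comparisons). For Irf8 the difference was 0.24 with overlap (p = 0.3 by the exact permutation test, 0.3 after adjustment). Monocyte and border macrophage markers summed to 8.96 to 10.6 FPKM in control and 5.93 to 11.3 FPKM in depleted mice. Their part in the Irf5 value was not tested.

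Irf4, a factor of lymphocytes and alternatively activated macrophages, was near the detection limit. It was at 0.12, 0.15 and 0.06 FPKM in control and 0.22, 0.06 and 0.04 FPKM in depleted mice, which corresponds to about 2.0 to 15 fragments per library. The exact permutation test gave p = 1.0, and a difference was not detectable at this depth. The B cell marker Ms4a1 was at 0 in all 6 mice, and the lymphocyte markers in the table summed to 3.57 to 3.69 FPKM in control and 2.57 to 5.23 FPKM in depleted mice.

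The makeup of the family's transcripts differed between the groups. Summed over the 8 genes, FPKM was 30.11, 29.74 and 30.69 in control mice and 77.36, 32.61 and 36.80 in depleted mice. Irf7 and Irf9 together made up 24.5%, 17.5% and 18.4% of that sum in control mice and 65.6%, 34.7% and 31.6% in depleted mice. Irf2 and Irf3 made up 60.3%, 64.1% and 62.0% in control mice and 21.9%, 51.4% and 53.5% in depleted mice. The inducible pair was thus a larger share in every depleted mouse than in any control mouse, A5 and A6 included.

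**Figure D3:**
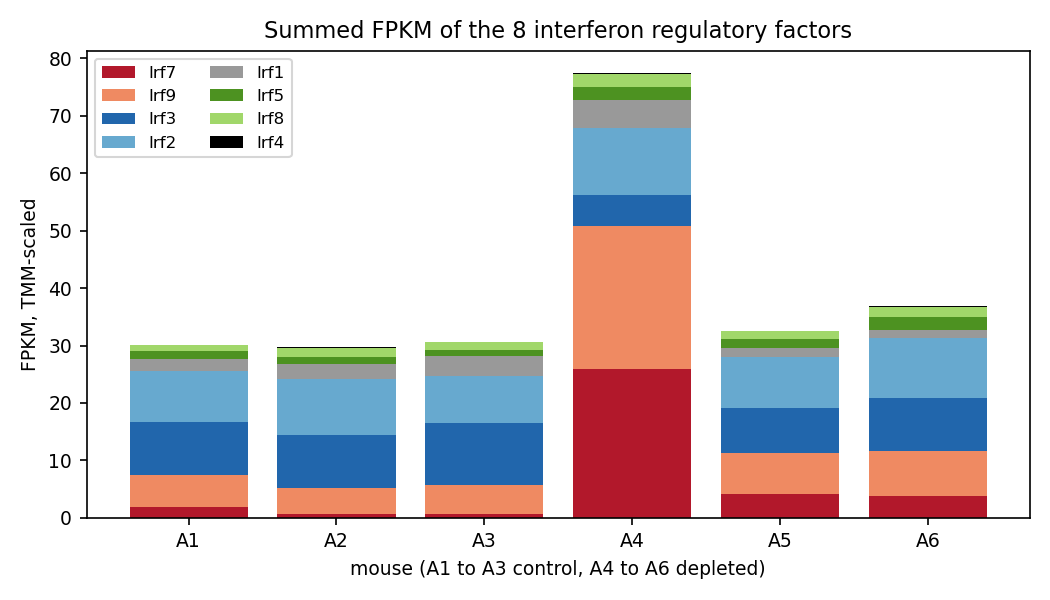
Summed FPKM of the 8 IRF genes in each mouse, stacked by gene from 0. A4 reaches 77.36 FPKM, with Irf7 and Irf9 together at 65.6% of the sum, and the other 5 mice lie between 29.74 and 36.80 FPKM.

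Members were also compared within each mouse. Irf7 minus Irf3, in log2(FPKM + 1), was -1.87, -2.63 and -2.78 in control mice and 2.07, -0.787 and -1.10 in depleted mice, a difference of 2.49. Irf9 minus Irf3 differed by 1.41 between the groups, and Irf7 minus Irf9 by 1.07. In all 3 comparisons the depleted values lay above the control values without overlap, and each had p = 0.1 by the exact two-sided permutation test and 0.1 after Benjamini-Hochberg over the 3. Without A4 the differences were 1.48, 0.69 and 0.79, in the same order, and with a pseudocount of 0.1 in place of 1 they were 3.24, 1.57 and 1.67. These comparisons reuse the values of the single genes, and Irf3 had the most negative log2 fold change of the tested members. Their separation is therefore no evidence beyond the results of the single genes.

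The genes nearest to a member in profile over the 6 mice were ranked by the root mean square difference of log2(FPKM + 1) after each gene's control mean was subtracted. For Irf7 they were Ifit3 (0.146), Ifit1 (0.154), Oasl2 (0.206), Isg15 (0.261) and Ifi27l2a (0.282), all interferon-stimulated genes. For Irf9 they were Gfap (0.118), Gbp5 (0.126), Irgm1 (0.133), C4b (0.139) and Ccl4 (0.156). The astrocyte gene Gfap was at 88.28, 64.48 and 84.21 FPKM in control mice and 300.31, 108.51 and 120.13 FPKM in depleted mice. Of the 8 astrocyte markers, of which Gfap is one, 6 were lower on average in depleted mice, with a median log2 fold change of -0.14, and their sum of 1186.32 to 1294.67 FPKM lay within the control range of 1179.89 to 1320.7 FPKM. For Irf8 they were Npcd, Hmgb3, Hrk, Llph and Bbs5, within 0.0631. The points share their libraries, and Irf7 and Irf9 were furthest from the control mean in A4.

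The genes around the IRFs were counted in lists by role, and with all 6 mice at equal weight none of their tested genes passed limma's adjusted threshold. Of 17 tested sensors, adaptors and kinases that activate IRFs, 11 were higher on average and 6 lower in depleted mice, with a median log2 fold change of 0.09, against -0.0085 over all tested genes, and without A4 the split was 10 to 7. The viral RNA sensor Ddx58 had the largest value at 0.83 (1.23, 0.92 and 1.35 FPKM against 8.50, 2.03 and 0.95 FPKM, with A6 within the control range, and 0.17 without A4), and the adaptor Ticam1 the smallest at -0.16. Interferon ligands were barely measurable: of 18 genes, 15 were at 0 in every mouse and none reached the filter. Ifnb1 was listed at 0.28 FPKM in A4 and at 0 in the other 5 mice.

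Of 9 interferon receptors, Janus kinases and ISGF3 STATs, 6 were higher and 3 lower on average, with a median of 0.068, and Ifngr2 was lowest at -0.036. Without A4, 4 were higher and 5 lower. Stat2, a partner of IRF9 in ISGF3, was at 6.11, 6.55 and 7.21 FPKM in control mice and 19.20, 9.08 and 9.22 FPKM after depletion, without overlap. Its log2 fold change was 0.75 (SE 0.248, limma p of 0.016, adjusted p of 0.396), and 0.42 without A4. Of 12 tested DNA-binding partners and coregulators, 6 were higher and 6 lower with a median of 0.002, from Irf2bp1 at -0.11 to Jun at 0.73. Without A4 the split was 4 to 8, and Jun had a log2 fold change of 0.12. Jun was at 54.93 FPKM in A4 and at 12.81 to 15.25 FPKM in the other 5 mice. The partner gene Spi1 was not analysed here.

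Negative regulators were mixed, with 7 higher and 4 lower of 11 tested and a median of 0.052, and with 5 higher and 6 lower without A4. Usp18, the interferon-induced brake on the type I receptor, was at 0.69, 0.66 and 0.55 FPKM in control mice and 22.21, 1.58 and 2.20 FPKM after depletion (log2 fold change 1.82, limma p of 0.0317, adjusted p of 0.440, and 0.82 without A4). Rbck1 was lowest, at -0.27, and was lower in every depleted mouse (40.90, 37.37 and 39.36 FPKM against 32.18, 35.62 and 29.78 FPKM).

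Target genes had the most one-sided counts of these lists. Of 22 genes targeted by IRF3, IRF7 or ISGF3, all 22 were higher on average, 15 at an unadjusted limma p under 0.05 and 17 without overlap, with a median log2 fold change of 1.45 and of 0.79 without A4. Rsad2, Mx1, Mx2, Oas1a, Oas2, Oasl1, Ifi44 and Ccl5 averaged under 0.5 FPKM in control mice. They passed the filter only through the depleted mice, although the filter removed none of the 22 listed genes. The chemokine Cxcl10 was largest at 2.69 (1.23, 0.13 and 0.69 FPKM against 42.11, 5.07 and 3.38 FPKM, limma adjusted p of 0.370) and was at 1.67 without A4, and Cmpk2 was smallest at 0.60 and at 0.31 without A4. Of 16 tested IRF1 target genes, all 16 were higher on average and 9 passed at the unadjusted level, with a median of 0.90 and of 0.42 without A4, from Vcam1 at 0.073 to Gbp3 at 1.35 (-0.052 and 0.78 without A4). Without A4, 15 of the 16 IRF1 targets were higher on average, whereas Irf1 itself was below the control mice in A5 and A6. Over all tested genes, 48% had a log2 fold change above 0. The shares that were higher at an unadjusted limma p under 0.05 and higher without overlap were 4.79% and 8.21%. The lists hold genes that the study itself picked from these mice, so their direction is not independent evidence, and Usp18, Stat2, Ddx58 and Ifih1 each stand in 2 lists.

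Of 8 tested genes that depend on IRF8 in microglia, 6 were higher and 2 lower, with a median of 0.30. Without A4, 4 were higher and 4 lower, with a median of 0.14. The lysosomal protease Ctss was largest at 1.08 (37.06, 29.53 and 33.23 FPKM against 92.91, 48.81 and 78.45 FPKM, limma adjusted p of 0.293), and P2ry12 smallest at -0.35, lower in every depleted mouse. Irf5 is itself on this list, and P2ry12, Cx3cr1 and Aif1 are also among the microglia markers. All these levels are of frontal cortical tissue and not of sorted cells, so the cells behind them are not known.

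**Figure D4:**
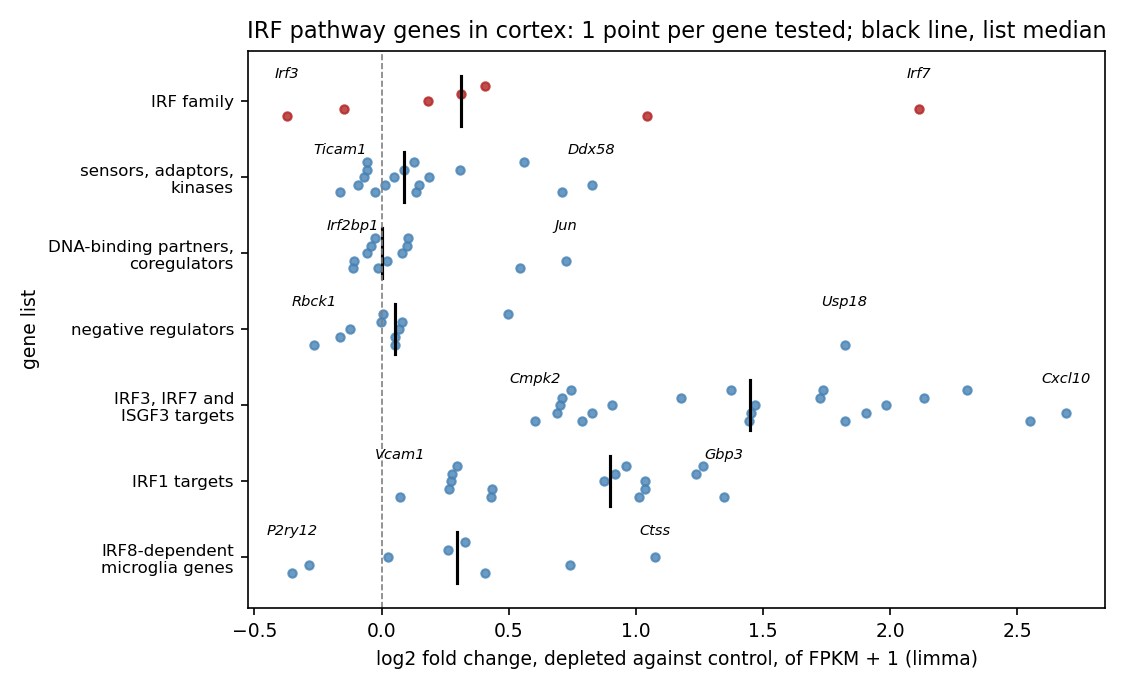
Log2 fold change (depleted against control, on the log2(FPKM + 1) scale) of each tested gene in 6 lists of IRF regulators, partners and targets (blue) and of the 7 tested IRF genes (red), with 1 point per gene, a black line at the median, and the genes at both ends named. The IRF3, IRF7 and ISGF3 targets have a median of 1.45 and the IRF1 targets of 0.90, whereas the medians of sensors, partners and negative regulators lie between 0.002 and 0.09.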

How the data were processed

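Cortical RNA of 6 mice was sequenced by the authors as poly(A) libraries with 75-base paired reads. The submitters' processing notes name TopHat, RSEM, DESeq and the mouse build mm9, and give no versions. The annotation and the use of strand in counting are not given in the sources used here. The authors deposited an FPKM value for each gene in each mouse, TMM-scaled and rounded, and no counts were used. FPKM is a level, not a count, so a count test was not run.

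Groups came from the labels. Genes averaging 0.5 FPKM or more were tested on the log2(FPKM + 1) scale by limma 3.58.1 (R 4.3.3, lmFit and trended eBayes), with Benjamini-Hochberg adjustment over 14385 genes and a threshold of 0.1. For low genes this scale understates the fold change. Single values were compared by exact two-sided permutation tests, which cannot go below p = 0.1 here. P-values measure the spread between these mice. The fit was tested on simulated data. Promoters came from RefSeq (GRCm38.p6), matched by symbol for 8 of 8 members, and shared windows and overlaps from GENCODE (GRCm38). Neither is the build of the files, so no coordinates of the files are given. Fragment numbers were estimated from low values, and are approximate. Python 3.11.15, numpy 2.4.6, pandas 2.3.3 and matplotlib 3.10.9 were used for other steps.

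The members and the gene lists were chosen with earlier results of these data known. Named genes were all 8 members, the tested genes with the largest and smallest log2 fold change of each pathway list, the 5 genes nearest in profile to Irf7, Irf8 and Irf9, and the microglia markers P2ry12, Tmem119 and Cx3cr1. Ifngr1, Stat2, Ifnb1, the overlapping genes and the target genes under 0.5 FPKM in control mice were named with their values known. A few items that the rule names are not reported here. The fit was repeated with a pseudocount of 0.1, without the filter, at a minimum mean of 1 FPKM, with median-of-ratios or TPM scaling, without the trend, with limma's array weights, at a threshold of 0.05, without each mouse in turn, and with a GC-content correction that was chosen after seeing the data.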

Additional observations from a re-analysis of the deposited data

How the results depend on the processing

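The number of IRF genes with a limma adjusted p under 0.1 was 0 under every alternative run. The number at an unadjusted p under 0.05 ran from 1 to 4 when single mice were left out (1 without A2 and 1 without A3, where 6.61% and 6.15% of all tested genes passed), and the number without overlap ran from 3 to 6 (6 without A2 and 5 without A5, where 26% and 32.7% of all tested genes had none). Irf7, Irf9, Irf5, Irf8 and Irf2 kept a positive and Irf3 a negative log2 fold change in all alternatives, whereas Irf1, at -0.57 without A4, reversed to 0.010 without A3, 0.067 without A5 and 0.061 without A6. Over the alternatives the adjusted p ran from 0.155 to 0.892 for Irf7, from 0.208 to 0.892 for Irf9 and from 0.243 to 0.892 for Irf5. The count of all genes called was 4, and was 2 with eBayes without trend, 20 with array weights and 2 to 29 with single mice left out (2 without A1, 29 without A5, 8 without A6). The median of the IRF8-dependent genes was 0.39 with a pseudocount of 0.1, 0.19 with array weights and 0.14 to 0.34 with single mice left out. The median of the IRF1 targets was 0.46 with no filter and 0.42 to 1.06 with single mice left out. Among the list genes, limma's adjusted p was under 0.1 with array weights for Ccl5 and H2-D1, both higher in depleted mice. With array weights it was also under 0.1 for the choroid plexus marker Ttr, which was lower (log2 fold change -1.935). Without A5 it was under 0.1 for Ccl5, Ctss and Aif1, all higher. The within-mouse differences kept their sign, with Irf7 minus Irf3 from 1.48 to 3.07. With the GC-content correction, chosen after seeing the data, 709 genes were higher and 579 lower at an unadjusted p under 0.05, against 689 and 826. The cause of these shifts was not tested. The replicate numbers 1 to 6 are not shared between groups. No paired analysis was possible because the groups share no replicate numbers. The shallowest library, A5, limits what can be seen of Irf4, Irf1, Irf5 and Irf8, with about 2.0, 22, 27 and 28 fragments there.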

Other observations

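Ifngr1, the ligand-binding chain of the interferon-gamma receptor, was chosen after its values were seen. Control mice held 7.5, 7.28 and 8.12 FPKM and depleted mice 9.68, 9.31 and 10.67 FPKM, and A4 did not stand apart. Its log2 fold change was 0.33 (SE 0.0996), with a limma p of 0.0094 and an adjusted p of 0.378, above the threshold of 0.1. Ifng, the gene of the ligand, was listed at 0 in all 6 mice.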
